A study of Arabidopsis thaliana with 12 samples.

Results

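Cysteine-rich receptor-like kinases (CRKs) are plasma membrane kinases of plants, and transcripts of 42 listed family members were followed here by 3′ RNA-seq in shoots of Arabidopsis thaliana. The members were taken by their locus codes, and all 42 were found among the 33331 genes of the count table. The libraries came from whole shoots of 2-week-old plants grown at 22 °C in constant light, with 3 libraries for each of 4 genotypes. The genotypes were aig2abc pad4, aig2abc, pad4 and the wild type Col-0. By its name aig2abc carries mutations in AIG2 genes, which encode small proteins induced during avirulence responses, and pad4 carries a mutation in PAD4, whose lipase-like product promotes salicylic acid signalling. The study asks how AIG2 genes restrain chemical defence and how far this runs through PAD4. The labels describe neither the lesions nor whether replicates were grown apart, and p-values therefore cover only the variation among these 12 libraries, part of which may be technical.

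A typical CRK holds an extracellular part with DUF26 domains rich in conserved cysteines, a membrane span and a cytoplasmic serine/threonine kinase. CRKs act in responses to pathogens, extracellular reactive oxygen and osmotic stress, and many of their genes lie in tandem arrays on chromosome 4. Forced expression of some members, such as CRK4 and CRK5, triggers cell death in leaves, and CRK2 phosphorylates the NADPH oxidase RBOHD.

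Library totals ranged from 5542138 to 8330632 counts in aig2abc pad4, from 584342 to 3005199 in aig2abc, from 7991739 to 10697612 in pad4 and from 6561011 to 9742035 in Col-0. The aig2abc libraries were thus the shallowest, and aig2abc replicate 2 was the smallest of them. Levels are given as CPM, counts scaled to library size with trimmed mean of M values (TMM) factors, and a floor of 3 counts over a group stood at 0.13 CPM in aig2abc pad4, 0.479 in aig2abc, 0.108 in pad4 and 0.12 in Col-0. PAD4 counted at 2.68, 3.45 and 2.93 CPM in pad4 against 17.1, 27.2 and 35.2 CPM in Col-0. The aig2abc libraries held more PAD4 RNA, with 56.7, 42.5 and 51.2 CPM, and those of aig2abc pad4 had 5.1, 8.14 and 5.92 CPM. PAD4 was called higher in aig2abc than in Col-0, by 0.94 ± 0.28 on the log2 scale (edgeR adjusted p = 0.0159). Its value of 1.07 ± 0.31 in aig2abc pad4 against pad4 did not pass (adjusted p = 0.0706). AT3G28950, an AIG2-like gene near AIG2 itself, had 5, 2 and 2 counts in aig2abc pad4 and 4, 0 and 4 in aig2abc, against 346, 348 and 375 in pad4 and 238, 321 and 560 in Col-0. Its neighbours did not follow it. AIG2 (AT3G28930) was at 209 to 227 CPM in aig2abc pad4, 77.2 to 109 in aig2abc, 46.8 to 50.5 in pad4 and 62.6 to 73.2 in Col-0, and AT3G28940, also an AIG2-like gene, at 84.5 to 353, 575 to 838, 579 to 1260 and 500 to 963 CPM in the same order. In aig2abc pad4 against aig2abc AIG2 was higher, by 1.24 ± 0.22 (edgeR adjusted p = 0.00269), and AT3G28940 lower, with a log2 change of -1.92 ± 0.44 (adjusted p = 0.00775), so both genotypes named aig2abc differed at this locus. The part of that difference in the results below was not tested. The summed level of 5 green shoot markers was 26755 to 31356 CPM in aig2abc pad4, 19525 to 21940 in aig2abc, 33985 to 49317 in pad4 and 34372 to 44628 in Col-0. Of 6 root markers EXPA7 and RHD6 had 0 counts in every library, and the sum was 13.8 to 39 CPM across libraries. Most of that sum was PYK10, which was present in every library at 12.5 to 37.5 CPM, and CASP1 had 89 counts over all libraries.

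Of the 42 members 23 passed the filter on low counts and were tested, and 19 did not. Tested members had at least 103 counts over the 12 libraries, and the others had at most 42. RKF2 (CRK1) and CRK33 had 0 counts in every library. The whole family took 0.0204 to 0.0231% of the counts in aig2abc pad4, 0.033 to 0.0445% in aig2abc, 0.00982 to 0.0134% in pad4 and 0.0131 to 0.025% in Col-0. This share was highest in the 3 aig2abc libraries, and the ranges of pad4 and Col-0 overlapped. In aig2abc it rested largely on the members EP1 and ARCK1. They held 468 and 412 of 1275 family counts in aig2abc replicate 1, 64 and 56 of 193 in replicate 2, and 467 and 362 of 1330 in replicate 3. Of the tested members 14 were called in at least 1 of 5 comparisons, and 9 in none. A call means a Benjamini-Hochberg adjusted p below 0.05 over all 15082 tested genes, from the quasi-likelihood test of edgeR. Since a member can pass the filter through the genotype in which it is high, counts over the tested members describe these 23 and not the family. In whole shoots, fewer cells of a type and less RNA per cell cannot be told apart.

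**Figure D1:**
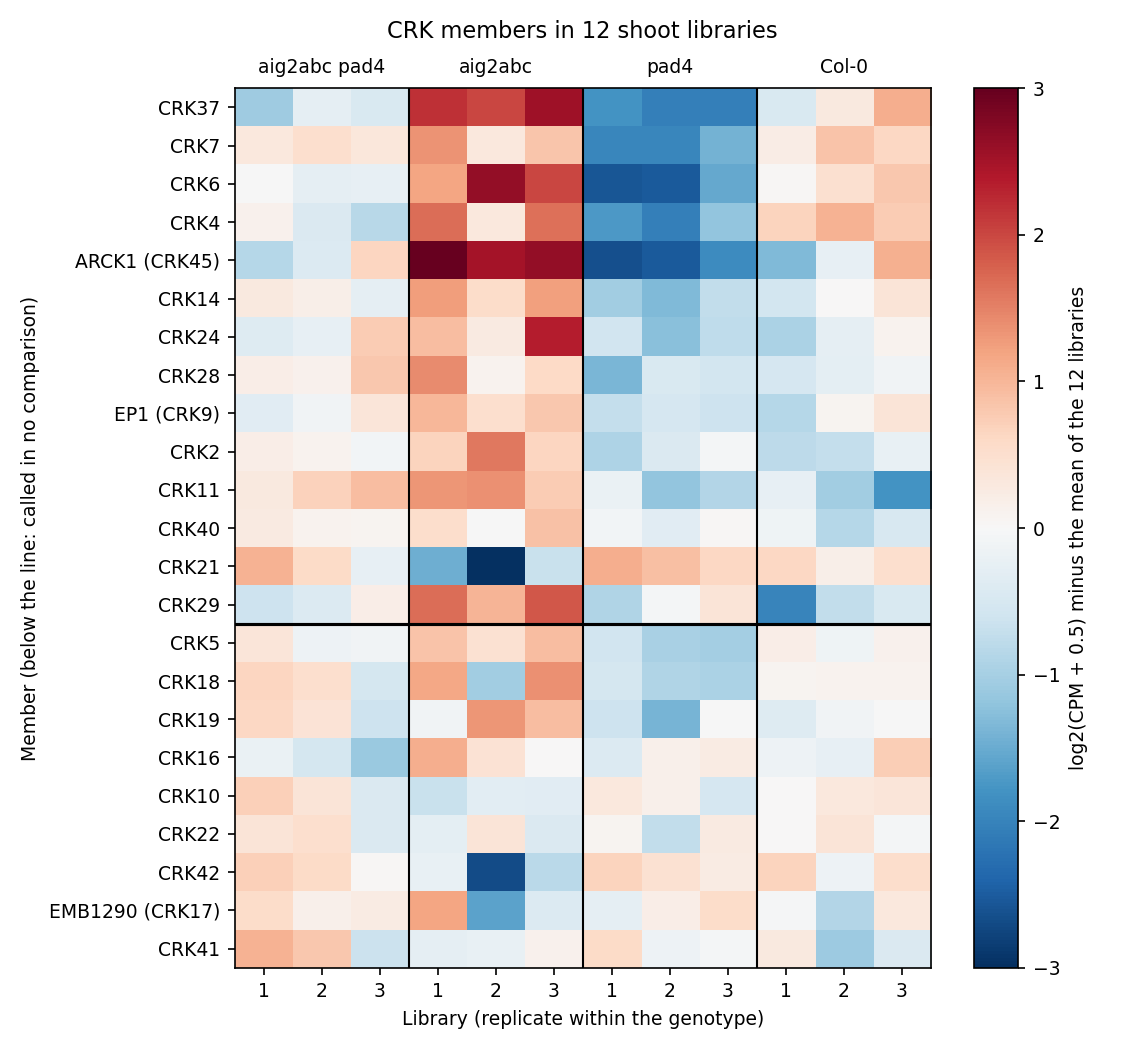
Heat map of the 23 tested members (rows) in the 12 libraries (columns, 3 per genotype), coloured by log2(CPM + 0.5) minus the member's mean over the 12 libraries, with the colour scale ending at 3 in either direction. The rows above the black line are the 14 members called in at least 1 comparison, and its top 5 rows (CRK37, CRK7, CRK6, CRK4 and ARCK1) are bluest in pad4.

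The comparison of pad4 with Col-0 asks what the loss of PAD4 changes in otherwise wild-type shoots. There 5 of the 23 tested members (21.7%) were lower and 0 were higher, where 0.683% of all tested genes were lower and 0.00663% higher (0.69% either way). By DESeq2 5 members were lower and 0 higher, by limma-voom 4 and 0, and 0 were higher at an unadjusted p below 0.05. The 5 lower members were CRK4 (AT3G45860, on chromosome 3) and CRK6 (AT4G23140), CRK7 (AT4G23150), CRK37 (AT4G04500) and ARCK1 (AT4G11890) on chromosome 4. The median log2 change was -0.55 over the 23 members and -0.01 over all tested genes. CRK6 and CRK7 are neighbouring genes linked to responses to extracellular reactive oxygen, and ARCK1, also named CRK45, encodes a cytosolic kinase induced by abscisic acid and osmotic stress.

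CRK6 stood at 2.98, 2.41 and 2.47 CPM in aig2abc pad4, at 7.41, 21.2 and 13.5 CPM in aig2abc, at 0.0956, 0.115 and 0.702 CPM in pad4 and at 3.11, 4.39 and 5.59 CPM in Col-0. The ranges of all 4 genotypes were separate, with pad4 lowest and aig2abc highest. CRK6 was lower in pad4 than in Col-0 by a log2 change of -3.82 ± 0.58 (SE; edgeR adjusted p = 0.00137).

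CRK7 stood at 1.92, 2.26 and 1.97 CPM in aig2abc pad4, at 4.45, 1.93 and 2.95 CPM in aig2abc, at 0, 0 and 0.234 CPM in pad4 and at 1.78, 3.04 and 2.5 CPM in Col-0. Only pad4 stood apart, with 2 counts over its 3 libraries, and the ranges of the other genotypes overlapped. Against the 59 counts in Col-0 this was a 32.8-fold lower level, with a 95% counting interval of 8.68 to 277 (fitted log2 change -4.74 ± 0.72, edgeR adjusted p = 0.00137).

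CRK37 stood at 0.481, 1.21 and 0.987 CPM in aig2abc pad4, at 8.9, 7.72 and 11.5 CPM in aig2abc, at 0.0956, 0 and 0 CPM in pad4 and at 0.999, 2.02 and 3.89 CPM in Col-0. Every aig2abc library was above all others and every pad4 library below, while aig2abc pad4 and Col-0 overlapped. With 1 count in pad4 and 60 in Col-0, its level was 66.6-fold lower (95% counting interval 11.5 to 2675; fitted log2 change -5.44 ± 0.83, edgeR adjusted p = 0.00142).

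CRK4 stood at 3.37, 2.11 and 1.48 CPM in aig2abc pad4, at 10.8, 3.86 and 10.5 CPM in aig2abc, at 0.573, 0.345 and 1.05 CPM in pad4 and at 5.11, 6.75 and 5.49 CPM in Col-0. The pad4 libraries were the lowest, the aig2abc pad4 libraries came next, and aig2abc overlapped with Col-0. That overlap came from aig2abc replicate 2, where 3.86 CPM was 2 counts, so its place is uncertain. The change in pad4 was -3.11 ± 0.46 (edgeR adjusted p = 0.00113).

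ARCK1 stood at 10.2, 14 and 29.8 CPM in aig2abc pad4, at 153, 108 and 119 CPM in aig2abc, at 2.58, 2.87 and 4.68 CPM in pad4 and at 7.22, 15.7 and 39.9 CPM in Col-0. ARCK1 was highest in aig2abc and lowest in pad4, and the wide Col-0 range enclosed that of aig2abc pad4. Its change in pad4 was -2.64 ± 0.52 (edgeR adjusted p = 0.0169). The ARCK1 call was lost without pad4 replicate 1 (adjusted p = 0.093), 2 (0.134) or 3 (0.0521), and without Col-0 replicate 3, where the change was -1.75 (adjusted p = 0.154). It was also lost by limma-voom (0.114), without a filter on low counts (0.231) and in a fit of pad4 and Col-0 alone (0.0558). The other 4 calls were kept when any library was left out. Without pad4 replicate 3, whose counts include the 2 of CRK7, CRK7 has 0 pad4 counts and its fitted value is no bound.

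**Figure D2:**
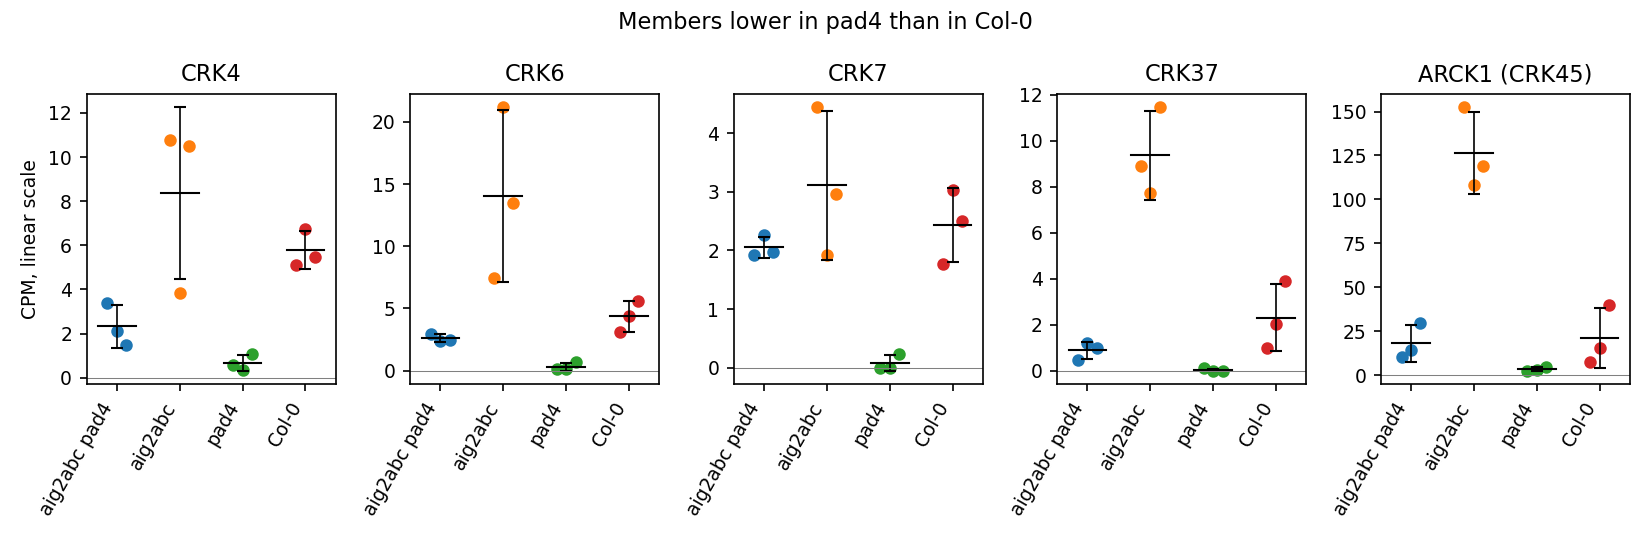
CPM on a linear scale (vertical axis) of the 5 members lower in pad4 than in Col-0, with 1 point per library, the mean as a line and the SD as a bar (n = 3 per genotype). The pad4 points lie below those of every other genotype in each panel, and CRK37 and ARCK1 reach 7.72 to 11.5 and 108 to 153 CPM in aig2abc.

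The comparison of aig2abc pad4 with pad4 asks what the AIG2 mutations change without PAD4. Of the 23 tested members 5 (21.7%) were higher and 0 lower, where 3.34% of all tested genes were higher and 0.663% lower (4% either way). By DESeq2 5 members were higher and 0 lower, by limma-voom 4 and 0, and 0 were lower at an unadjusted p below 0.05. The 5 were again CRK4, CRK6, CRK7, CRK37 and ARCK1. This comparison shares the pad4 libraries with the one before, so low pad4 counts enter both, and the values are given side by side and not as separate evidence. The median log2 change was 1.05 over the members and -0.02 over all tested genes, and 20 of 23 members had a positive value.

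CRK7 rose in aig2abc pad4 to 47 counts against 2 in pad4 (28.2-fold, 95% counting interval 7.38 to 240; fitted log2 change 4.50 ± 0.73, edgeR adjusted p = 0.000786). CRK6 rose by 3.10 ± 0.60 (adjusted p = 0.00407). These calls were kept when any library was left out. CRK37 rose to 19 counts against 1 (22.8-fold, interval 3.62 to 947; fitted 4.01 ± 0.95, edgeR adjusted p = 0.0192). ARCK1 rose by 2.40 ± 0.52 (adjusted p = 0.011) and CRK4 by 1.84 ± 0.48 (adjusted p = 0.0351). In CRK6, CRK7, CRK37, CRK4 and ARCK1 the 3 aig2abc pad4 libraries were above the 3 pad4 libraries without overlap. The count of members higher was 3 without aig2abc pad4 replicate 2 or pad4 replicate 1, and 2 without pad4 replicate 2. CRK37 was lost without aig2abc pad4 replicate 2 (adjusted p = 0.0791), pad4 replicate 2 (0.0935) or pad4 replicate 3 (0.0753). ARCK1 was lost without aig2abc pad4 replicate 3 (0.0504), pad4 replicate 1 (0.0514) or pad4 replicate 2 (0.0727), and without a filter on low counts (0.108). CRK4 was lost without aig2abc pad4 replicate 1 (0.257) or 2 (0.0818), aig2abc replicate 1 (0.0527), or pad4 replicate 1 (0.117) or 2 (0.171), by limma-voom (0.0542) and in a fit of aig2abc pad4 and pad4 alone (0.135). Without pad4 replicate 3 the fitted change of CRK7 was 6.79, a value set against pad4 libraries without counts.

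The members called here were also those lower in pad4 than in Col-0, but both comparisons share the pad4 libraries, and joint regulation was not tested. The DNA upstream of the 4 with the smallest p in aig2abc pad4 against pad4 is shown. Beside it stands that of the 2 members with the most counts among those called in no comparison. The window of CRK4, the fifth, is not printed and held 1 TTGAC and 2 TGACG. The windows are the 250 bases before each annotated gene start in RefSeq's TAIR10.1, 5′ to 3′ on the gene's strand. Capitals mark matches on either strand to TTGAC, the core of the W-box bound by WRKY factors, and to TGACG, the core bound by TGA factors. The first 4 windows belong to members that were higher in aig2abc pad4 than in pad4.
CRK7 (chr4:12125414-12125663, plus strand): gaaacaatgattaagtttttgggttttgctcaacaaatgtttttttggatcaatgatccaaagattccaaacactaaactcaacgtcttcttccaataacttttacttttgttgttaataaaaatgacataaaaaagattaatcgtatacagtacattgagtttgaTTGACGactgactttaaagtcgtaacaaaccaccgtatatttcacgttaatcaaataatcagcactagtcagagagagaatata
CRK6 (chr4:12121119-12121368, plus strand): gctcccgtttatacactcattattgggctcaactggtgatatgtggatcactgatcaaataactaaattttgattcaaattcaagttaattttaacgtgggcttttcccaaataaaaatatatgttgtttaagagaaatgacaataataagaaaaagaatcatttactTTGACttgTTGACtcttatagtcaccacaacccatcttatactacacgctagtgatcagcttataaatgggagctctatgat
ARCK1 (chr4:7147615-7147864, plus strand): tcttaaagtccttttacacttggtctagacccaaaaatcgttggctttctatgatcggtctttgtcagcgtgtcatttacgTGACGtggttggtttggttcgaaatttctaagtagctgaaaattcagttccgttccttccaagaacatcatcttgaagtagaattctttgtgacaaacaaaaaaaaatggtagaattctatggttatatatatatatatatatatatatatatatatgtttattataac
CRK37 (chr4:2238120-2238369, plus strand): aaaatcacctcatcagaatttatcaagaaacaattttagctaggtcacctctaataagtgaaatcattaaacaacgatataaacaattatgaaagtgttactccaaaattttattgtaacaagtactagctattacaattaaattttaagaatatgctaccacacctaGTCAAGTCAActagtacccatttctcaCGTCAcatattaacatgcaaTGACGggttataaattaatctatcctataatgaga
The remaining 2 windows belong to members called in no comparison.
CRK10 (chr4:12137745-12137994, plus strand): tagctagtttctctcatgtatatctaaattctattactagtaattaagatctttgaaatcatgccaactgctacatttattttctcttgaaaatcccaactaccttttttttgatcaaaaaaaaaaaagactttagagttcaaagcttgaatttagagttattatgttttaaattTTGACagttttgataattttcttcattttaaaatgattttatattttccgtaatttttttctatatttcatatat
CRK18 (chr4:12170081-12170330, minus strand): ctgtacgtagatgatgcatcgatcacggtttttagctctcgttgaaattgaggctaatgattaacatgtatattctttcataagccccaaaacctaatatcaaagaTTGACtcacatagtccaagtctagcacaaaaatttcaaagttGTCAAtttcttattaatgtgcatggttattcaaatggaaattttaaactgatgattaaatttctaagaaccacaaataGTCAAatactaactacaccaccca
CRK6 had 2 TTGAC cores in close succession, and CRK37 had 2 of each core. CRK7 had a stretch that matched both motifs where they overlap, and ARCK1 had 1 TGACG and 0 TTGAC. CRK10 had 1 TTGAC core and CRK18 had 3.

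Over the whole family, 30 of 42 windows (71.4%) held at least 1 TTGAC, against 44.9% of the 27443 windows of nuclear protein-coding genes. At least 2 were held by 17 of 42 windows (40.5%), against 14.1%. TGACG was held by 14 of 42 windows (33.3%), against 18.6%, and GCCGCC, the core of the box bound by ethylene response factors, by 0 of 42, against 1.87%. TTGAC was present in 9 of the 14 called members and in 7 of the 9 tested members called in no comparison. TGACG was present in 9 of the 14 and in 1 of the 9. CRK11 held 6 TTGAC cores, the highest number in the family. These are matches of letters in a short window, and neighbouring genes of a tandem array share ancestry. Some windows of the family overlap another annotated gene, such as those of CRK15 (CRK16), CRK16 (EMB1290) and CRK28 (CRK29). Such windows were not left out of the shares for the family or for all coding genes.

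The comparison of aig2abc with Col-0 asks what the AIG2 mutations change where the PAD4 gene is intact. PAD4 RNA was itself higher in aig2abc, and its part in the members' changes was not tested. Of the 23 tested members 11 (47.8%) were higher and CRK21 was lower, where 18% of all tested genes were higher and 19.5% lower (37.5% either way). The median log2 change was 0.97 over the members and -0.08 over all tested genes. The higher members were CRK2, CRK6, EP1 (CRK9), CRK11, CRK14, CRK24, CRK28, CRK29, CRK37, CRK40 and ARCK1. CRK6 rose by 1.53 ± 0.46 (edgeR adjusted p = 0.0158), CRK37 by 2.05 ± 0.50 (adjusted p = 0.00512) and ARCK1 by 2.60 ± 0.49 (adjusted p = 0.000997). CRK4 and CRK7 were not called, at 0.70 ± 0.41 and 0.50 ± 0.53.

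CRK29, which lies beside CRK28, stood at 2.79, 3.32 and 5.26 CPM in aig2abc pad4, at 15.6, 9.65 and 17.7 CPM in aig2abc, at 2.2, 4.37 and 6.08 CPM in pad4 and at 0.777, 2.53 and 3.19 CPM in Col-0. The 3 aig2abc libraries were above all others, and the remaining genotypes overlapped. CRK29 rose by 2.80 ± 0.49 in aig2abc against Col-0 (edgeR adjusted p = 0.000568).

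CRK28, whose product associates with the co-receptor BAK1, stood at 2.12, 1.96 and 3.45 CPM in aig2abc pad4, at 5.56, 1.93 and 2.95 CPM in aig2abc, at 0.382, 1.15 and 1.05 CPM in pad4 and at 1.11, 1.35 and 1.6 CPM in Col-0. The genotypes with aig2abc overlapped each other and lay above pad4 and Col-0. In aig2abc replicate 2 the 1.93 CPM was 1 count, so its place above Col-0 is uncertain. CRK28 rose by 1.51 ± 0.53 in aig2abc (edgeR adjusted p = 0.0325), a call lost without aig2abc replicate 1, where the change was 0.94 (adjusted p = 0.31), and without Col-0 replicate 1 (0.0961) or 2 (0.0661). CRK28 and CRK29 overlap on the same strand in the annotation, so reads at the end of CRK29 could have been split or dropped. CRK29 also overlaps AT4G03065 on that strand. The separate values of CRK28 and CRK29 are therefore uncertain.

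CRK11, a member induced by oxidative stress and pathogens, stood at 2.5, 3.47 and 4.11 CPM in aig2abc pad4, at 5.56, 5.79 and 3.61 CPM in aig2abc, at 1.62, 0.575 and 0.819 CPM in pad4 and at 1.55, 0.675 and 0.2 CPM in Col-0. Each genotype with aig2abc lay above its counterpart without it. CRK11 rose by 2.53 ± 0.62 in aig2abc (edgeR adjusted p = 0.00519), a call kept when any library was left out. In aig2abc pad4 against pad4 its value was 1.68 ± 0.54 and did not pass (adjusted p = 0.105), although it passed without Col-0 replicate 1 (0.042). CRK10 and CRK11 overlap at their 3′ ends on opposite strands, and the strand setting of the counting is not given in the sources used here, so reads at this junction are uncertain for both.

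CRK2, the RBOHD kinase, stood at 7.12, 6.63 and 5.76 CPM in aig2abc pad4, at 10, 19.3 and 9.85 CPM in aig2abc, at 2.96, 4.37 and 5.85 CPM in pad4 and at 3.33, 3.54 and 5.19 CPM in Col-0. The aig2abc libraries were above all others, the highest being the shallow aig2abc replicate 2. CRK2 rose by 1.53 ± 0.37 (edgeR adjusted p = 0.00488), a call kept when any library was left out.

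CRK24 stood at 1.06, 1.21 and 2.96 CPM in aig2abc pad4, at 3.34, 1.93 and 9.85 CPM in aig2abc, at 0.86, 0.345 and 0.702 CPM in pad4 and at 0.555, 1.18 and 1.7 CPM in Col-0. The highest value was that of aig2abc replicate 3, and the other aig2abc libraries lay above all of Col-0. In aig2abc replicate 2 the 1.93 CPM was 1 count, so its place above Col-0 is uncertain. CRK24 rose by 2.33 ± 0.61 (edgeR adjusted p = 0.00763), a call lost without aig2abc replicate 3, where the change was 1.35 (adjusted p = 0.201).

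CRK14 stood at 3.18, 2.86 and 1.97 CPM in aig2abc pad4, at 6.67, 3.86 and 6.57 CPM in aig2abc, at 0.956, 0.689 and 1.29 CPM in pad4 and at 1.55, 2.53 and 3.39 CPM in Col-0. The pad4 libraries were the lowest and those of aig2abc the highest, and aig2abc pad4 overlapped with Col-0. In aig2abc replicate 2 the 3.86 CPM was 2 counts, so its place above Col-0 is uncertain. CRK14 rose by 1.29 ± 0.42 in aig2abc (edgeR adjusted p = 0.0243), a call lost without aig2abc replicate 1 (0.122) or 3 (0.0947) or Col-0 replicate 1 (0.104) or 2 (0.054). Its value of -1.34 ± 0.43 in pad4 against Col-0 did not pass (adjusted p = 0.333).

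CRK40 stood at 16.4, 14.8 and 14.5 CPM in aig2abc pad4, at 19.6, 13.5 and 25.3 CPM in aig2abc, at 12.7, 10.7 and 14 CPM in pad4 and at 12.4, 7.25 and 9.58 CPM in Col-0. The aig2abc libraries lay above those of Col-0 and overlapped with those of aig2abc pad4 and pad4. CRK40 rose by 1.07 ± 0.29 (edgeR adjusted p = 0.00823), a call lost without aig2abc replicate 3 (0.0758).

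EP1 stood at 69.2, 80.6 and 112 CPM in aig2abc pad4, at 174, 124 and 153 CPM in aig2abc, at 52.7, 61.1 and 56.4 CPM in pad4 and at 48, 92.3 and 114 CPM in Col-0. Its Col-0 libraries spread widely and lay below those of aig2abc. EP1 rose by 0.84 ± 0.30 in aig2abc (edgeR adjusted p = 0.0358). This call was lost without aig2abc pad4 replicate 1 (0.0559) or 2 (0.0744), aig2abc replicate 1 (0.212) or 3 (0.0942), Col-0 replicate 2 (0.0656) or Col-0 replicate 1, where the change was 0.51 (0.187).

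CRK21 moved the other way. It stood at 8.76, 6.18 and 3.29 CPM in aig2abc pad4, at 1.11, 0 and 2.3 CPM in aig2abc, at 8.98, 7.81 and 6.32 CPM in pad4 and at 6.33, 4.55 and 5.79 CPM in Col-0. The aig2abc libraries were below all others, with 10 counts in the group. CRK21 fell by 1.84 ± 0.53 in aig2abc on the log2 scale (edgeR adjusted p = 0.0127), a call lost without aig2abc replicate 1 (0.0772).

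**Figure D3:**
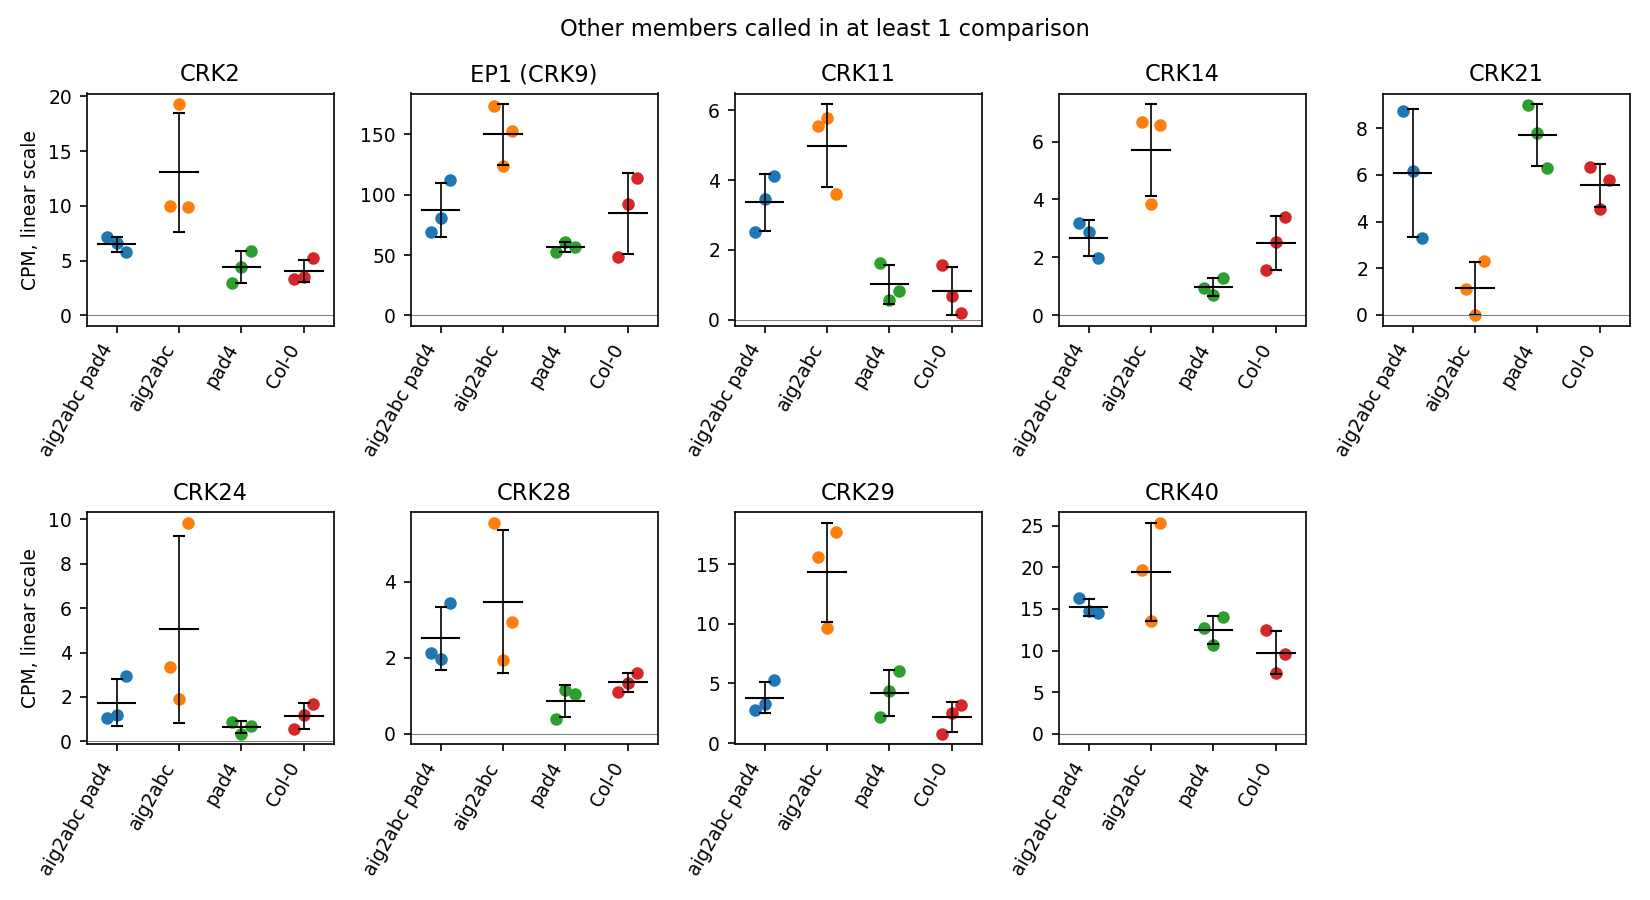
CPM on a linear scale (vertical axes) of the other 9 members called in at least 1 comparison, with 1 point per library, the mean as a line and the SD as a bar (n = 3 per genotype). The aig2abc points are highest for CRK2, EP1 and CRK29 and lowest for CRK21, where they lie at 0 to 2.3 CPM.

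The aig2abc libraries stood apart from the rest in more than these genes. On the leading axis of variation among replicates of the other genotypes the scores were 33.4, 23.2 and -63.6 for aig2abc pad4, -97.9, -108 and -85 for aig2abc, 28.7, -16.1 and -36.9 for pad4, and 59.8, -12.3 and -16.2 for Col-0. Of the 5 green shoot markers 3 were lower in aig2abc than in Col-0, as were 1 of 2 tested guard cell markers (KAT1, -2.90 ± 0.72) and 1 of 2 phloem markers (SUC2, -0.78 ± 0.29), where 19.5% of all tested genes were lower. Of 3 tested dividing cell markers 0 were lower, and the 1 tested root marker, PYK10, was not called. With the axis score as a covariate 4 members were higher in aig2abc than in Col-0 in place of 11, and CRK21 was not called, while 3.83% of all tested genes were higher in place of 18% and 5.3% lower in place of 19.5%. CRK11 and CRK40 were among the 4, and the others were CRK18 and CRK41. With it CRK6 was at 0.95 (adjusted p = 0.383), CRK37 at 1.03 (0.464), ARCK1 at 0.91 (0.178) and CRK29 at 1.44 (0.0763). The part of this axis in the aig2abc result was not tested further. The count of higher members was 11 without the shallow aig2abc replicate 2, where CRK6 was no longer called (0.055) and CRK18 was. It was 6 without aig2abc replicate 3, where CRK6 was not called either (0.0711), and 7 without Col-0 replicate 1, with CRK6 at adjusted p = 0.0612.

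The comparisons of aig2abc with Col-0 and of aig2abc pad4 with pad4 share no library. CRK6, CRK37 and ARCK1 were higher in both, which is 27.3% of the 11 members higher in the first and 60% of the 5 higher in the second. Over all tested genes 325 were higher in both, which is 12% and 64.6% of those higher in each. The 8 members higher only in the first had values from -0.16 ± 0.45 (CRK29) to 1.68 ± 0.54 (CRK11) in the second. CRK14 was there at 1.45 ± 0.43 (edgeR adjusted p = 0.0709) and CRK28 at 1.53 ± 0.49 (0.105), beside 1.29 and 1.51 in the first. A call in the first alone thus need not mean a smaller value in the second. With the same axis covariate, 11 members were higher in aig2abc pad4 than in pad4, as were 6.37% of all tested genes in place of 3.34%. These were the 5 called without it together with CRK5, EP1, CRK11, CRK14, CRK18 and CRK28.

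**Figure D4:**
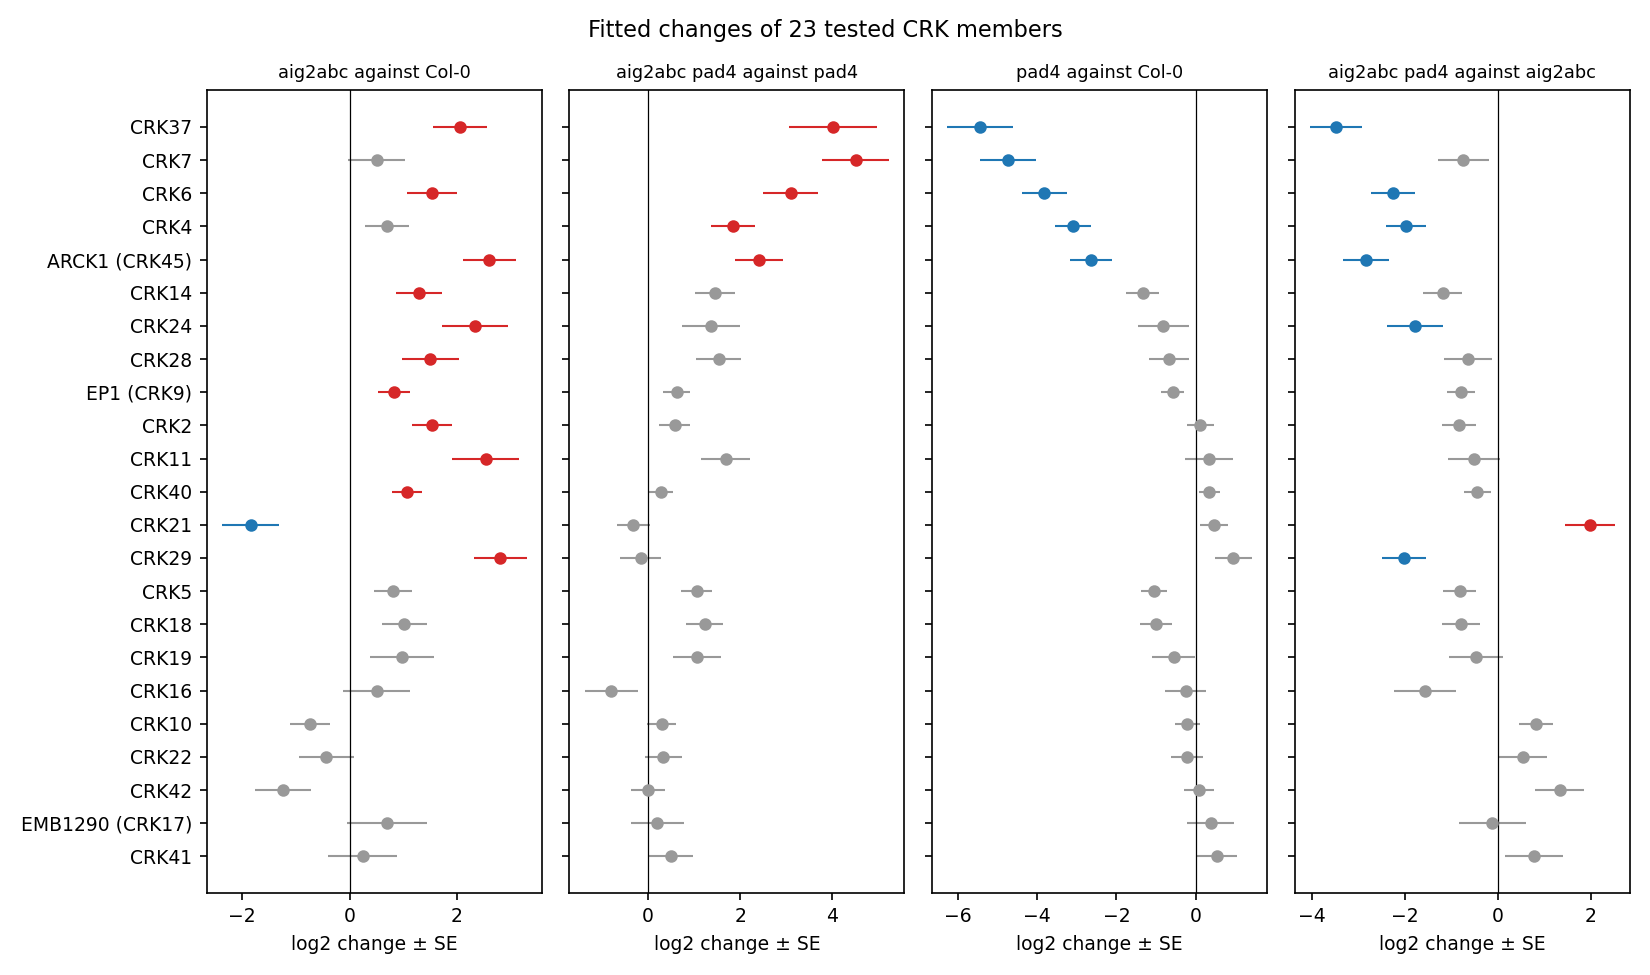
Fitted log2 changes with their SE (horizontal axes) of the 23 tested members (rows) in 4 comparisons, with called members in red where higher and in blue where lower and the others in grey. CRK37, CRK7, CRK6, CRK4 and ARCK1 lie left of 0 for pad4 against Col-0 and right of 0 for aig2abc pad4 against pad4.

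The comparison of aig2abc pad4 with aig2abc asks what the loss of PAD4 changes in plants with the AIG2 mutations. Of the 23 tested members 6 (26.1%) were lower and CRK21 was higher, where 11.5% of all tested genes were lower and 12.8% higher (24.3% either way). The lower members were CRK4, CRK6, CRK24, CRK29, CRK37 and ARCK1. CRK37 fell by 3.48 ± 0.56 on the log2 scale (edgeR adjusted p = 0.00163), ARCK1 by 2.83 ± 0.50 (adjusted p = 0.00251), CRK6 by 2.25 ± 0.48 (adjusted p = 0.0051) and CRK29 by 2.02 ± 0.47 (adjusted p = 0.0079). CRK4 fell by 1.97 ± 0.43 (adjusted p = 0.00579), and CRK7 was not called, at -0.74 ± 0.54. In the same comparison 3 of 5 green shoot markers were higher (RBCS3B, LHCA1 and CAB1, which rose by 1.89 ± 0.30). Of 2 tested guard cell markers KAT1 was higher by 2.58 ± 0.74, and FMA was not called, at -0.07 ± 0.36. Of the tested root, dividing cell and phloem markers 0 were called. The part of these markers in the members' changes was not tested. This comparison again rests on the aig2abc libraries, and with the axis covariate CRK4 was the 1 member still called lower, beside 0.849% of all tested genes. CRK24 fell by 1.78 ± 0.60 (adjusted p = 0.0396), a call lost without aig2abc pad4 replicate 1 (0.168) or 2 (0.151), aig2abc replicate 1 (0.0557), Col-0 replicate 2 (0.0511), or aig2abc replicate 3, where the change was -0.80 (0.482). CRK21 rose by 1.98 ± 0.53 (edgeR adjusted p = 0.0147) and was lost without aig2abc pad4 replicate 1 (0.0653) or aig2abc replicate 1 (0.0758). The count of higher members was 3 without aig2abc pad4 replicate 3, where CRK10 and CRK42 joined CRK21.

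The interaction sets the aig2abc change without PAD4 against that with PAD4, and it was called for 2 members, CRK7 upward and CRK29 downward. Of all tested genes 8.53% were called upward and 6.23% downward (14.8% either way). The share of the members was 4.35% each way, which is 1 of 23 and too few to be set apart from the background. For CRK7 the aig2abc change was larger without PAD4, by 4.00 ± 0.93 (edgeR adjusted p = 0.0175). Its level in aig2abc pad4 lay within the Col-0 range, although pad4 alone had 2 counts. For CRK29 the rise seen in aig2abc was not seen in aig2abc pad4, at -0.16 ± 0.45 against pad4, and the difference was -2.97 ± 0.66 (edgeR adjusted p = 0.0167). CRK29 in pad4 was itself at 0.95 ± 0.47 against Col-0, which did not pass (edgeR adjusted p = 0.837) but enters this difference. The CRK29 interaction was lost without pad4 replicate 3 (0.0504), and the CRK7 interaction was 6.29 without that library, where pad4 had 0 CRK7 counts. Without aig2abc pad4 replicate 3, CRK10 (1.32, adjusted p = 0.0322) and CRK21 (1.81, adjusted p = 0.0293) were also called upward.

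A tandem array of 20 members, from CRK5 to CRK24, lies on chromosome 4 with 1 further protein-coding gene, AT4G23271, annotated inside CRK19 on the opposite strand. CRK16 and EMB1290 overlap on the same strand, so the values of CRK16, EMB1290 and CRK19 are uncertain. Of the 20, 14 were tested. In pad4 against Col-0, CRK6 and CRK7 were lower, and the other 12 tested genes of the array were not called. CRK5, on one side of this pair and transcribed in the other direction, stood at 5.39, 3.62 and 3.78 CPM in aig2abc pad4, at 7.79, 5.79 and 8.21 CPM in aig2abc, at 2.58, 1.84 and 1.76 CPM in pad4 and at 4.77, 3.71 and 4.49 CPM in Col-0. Its pad4 libraries were below all others, but the change of -1.06 ± 0.33 did not pass (edgeR adjusted p = 0.299), nor did the 1.05 ± 0.33 of aig2abc pad4 against pad4 (adjusted p = 0.098). On the other side lies CRK8, with 8 counts in aig2abc pad4, 8 in aig2abc, 2 in pad4 and 11 in Col-0, which was not tested. The difference between the pair and its neighbours was not tested. Outside the array 9 of 22 members were tested, and 3 of them were lower in pad4. In aig2abc against Col-0, 5 of the 14 in the array were higher and 1 lower, and 6 of the 9 outside it were higher and 0 lower, beside 18% and 19.5% of all tested genes.

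**Figure D5:**
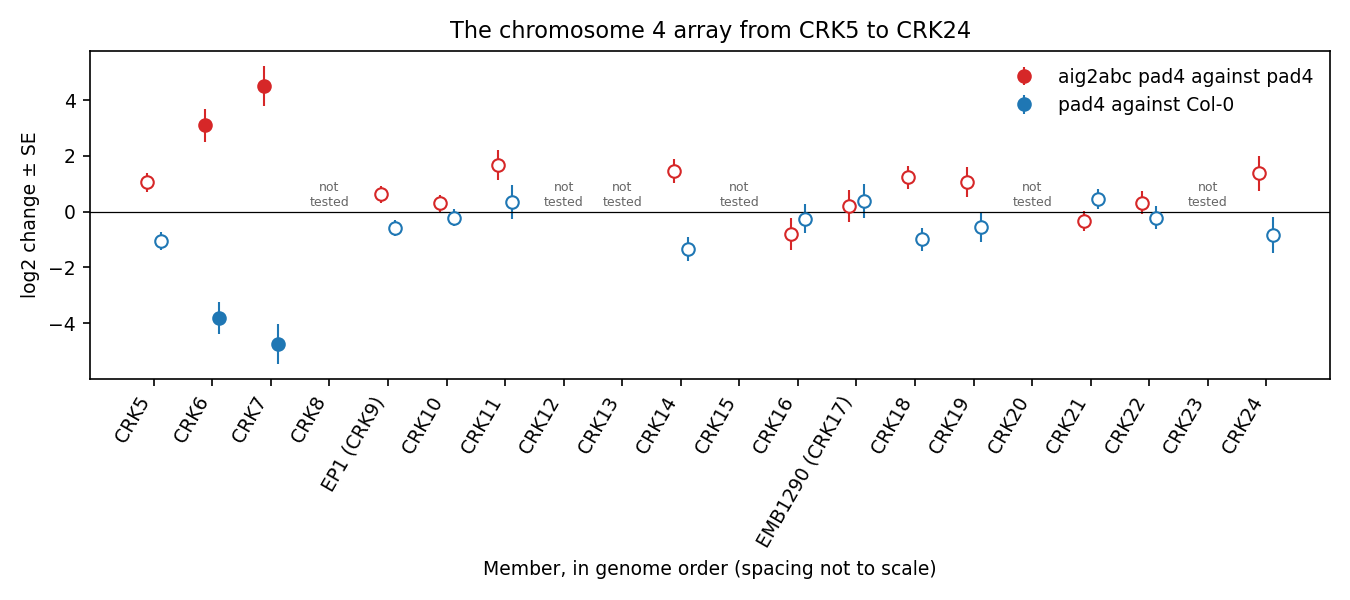
Fitted log2 changes with their SE (vertical axis) for the members from CRK5 to CRK24 in genome order (horizontal axis, spacing not to scale), for aig2abc pad4 against pad4 in red and pad4 against Col-0 in blue, with filled points for called members. CRK6 and CRK7 hold the filled points, at 3.10 and 4.50 in red and -3.82 and -4.74 in blue.

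The 9 tested members called in no comparison were CRK5, CRK10, CRK16, EMB1290 (CRK17), CRK18, CRK19, CRK22, CRK41 and CRK42. CRK10, a member known from mutants with altered hypocotyl xylem, stood at 16.4, 13 and 7.07 CPM in aig2abc pad4, at 5.93, 7.72 and 7.55 CPM in aig2abc, at 12.3, 10.8 and 6.67 CPM in pad4 and at 9.88, 12.1 and 12.7 CPM in Col-0. Its aig2abc libraries were below those of Col-0, at -0.74 ± 0.37 (edgeR adjusted p = 0.126). CRK18 stood at 7.31, 6.63 and 2.96 CPM in aig2abc pad4, at 10.8, 1.93 and 12.5 CPM in aig2abc, at 2.96, 2.18 and 2.11 CPM in pad4 and at 4.77, 4.89 and 4.89 CPM in Col-0. The low aig2abc value came from 1 count in the shallow aig2abc replicate 2, and without that library CRK18 was called higher in aig2abc, by 1.25 (adjusted p = 0.0221). It was also called there without aig2abc pad4 replicate 3 (0.0325). CRK19, another member whose forced expression triggers cell death, was at 0.97 ± 0.60 in aig2abc against Col-0 and at 1.06 ± 0.53 in aig2abc pad4 against pad4. CRK42, at -1.24 ± 0.52 in aig2abc against Col-0, was called lower without Col-0 replicate 2, by 1.47 (adjusted p = 0.0462).

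Among the 19 members that were not tested, CRK36, a partner of ARCK1 in abscisic acid responses, had 9 counts in aig2abc pad4, 9 in aig2abc, 1 in pad4 and 12 in Col-0. CRK38 had 4, 7, 1 and 11 counts in the same order of genotypes, and CRK3 had 18, 10, 3 and 11. CRK15 had 21 counts in aig2abc pad4, 0 in aig2abc, 4 in pad4 and 10 in Col-0. CRK13, whose higher expression raises salicylic acid, had 8 counts in aig2abc pad4, 9 in aig2abc, 5 in pad4 and 7 in Col-0. All of these were left out by the filter on low counts. In a fit without it CRK15 passed the interaction (edgeR adjusted p = 0.0497), set against 0 counts in aig2abc. CRK25, CRK26, CRK27, CRK31, CRK32 and CRK34 had 1 to 4 counts over all libraries, and CRK12, CRK20, CRK23, CRK30 and CRK39 had 6 to 20. Of the last 500 transcript bases of the tested members, 50-base words were found elsewhere in the genome for CRK18 alone (1.77% of its words), so reads of that length could be told apart between most tested members. Among members that were not tested the share reached 9.98%, in CRK8, whose words matched CRK6. ARCK1 overlaps AT4G11900 on the other strand at its 3′ end, which makes its reads there uncertain.

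The DUF26 domain also occurs in plasmodesmata-located proteins (PDLPs), which have no kinase. Of 8 PDLP genes 4 were tested, and 1 was higher and 1 lower in aig2abc than in Col-0, beside the same shares of all genes as for the members. HWI1 (PDLP5), which restricts plasmodesmata with callose, stood at 1.64, 2.41 and 2.14 CPM in aig2abc pad4, at 7.41, 1.93 and 9.19 CPM in aig2abc, at 0.956, 1.03 and 0.468 CPM in pad4 and at 3.11, 2.02 and 1.7 CPM in Col-0. The highest values were in aig2abc, whose replicate 2 rests on 1 count. HWI1 rose by 1.65 ± 0.45 in aig2abc against Col-0 (edgeR adjusted p = 0.00936) and fell by 1.81 ± 0.46 in aig2abc pad4 against aig2abc (adjusted p = 0.0111), while its value of -1.45 ± 0.47 in pad4 against Col-0 did not pass (adjusted p = 0.369). PDLP3 fell by 3.26 ± 1.03 in aig2abc (adjusted p = 0.0201), with 5 counts in that group and a Col-0 range of 2.79 to 16.8 CPM. In aig2abc pad4 against pad4 and in pad4 against Col-0, 0 PDLP genes were called by edgeR, and 1 in each had an unadjusted p below 0.05.

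A further list held 9 genes of cell-surface signalling taken as partners of CRKs, and the partnership of each was not examined here. All 9 were tested. Of them 3 were higher in aig2abc than in Col-0 and 0 lower, beside 18% of all tested genes higher and 19.5% lower. At an unadjusted p below 0.05, 0 of the 9 were lower. BAK1, a co-receptor of many immune receptors, stood at 20.9, 25.8 and 63.6 CPM in aig2abc pad4, at 103, 69.5 and 93.2 CPM in aig2abc, at 22.8, 46 and 40.8 CPM in pad4 and at 18.4, 32 and 34.8 CPM in Col-0. The aig2abc libraries were above all others. BAK1 rose by 1.66 ± 0.39 in aig2abc (edgeR adjusted p = 0.00418), was lower in aig2abc pad4 than in aig2abc by a log2 change of -1.30 ± 0.39 (adjusted p = 0.0254), and had an interaction of -1.66 ± 0.55 (adjusted p = 0.0495). SERK4, a close relative of BAK1, rose by 1.10 ± 0.34 and CPK28, a calcium-dependent kinase that limits the immune kinase BIK1, by 1.19 ± 0.34 in aig2abc. CERK1, the chitin receptor kinase, was higher in aig2abc pad4 than in aig2abc by 0.74 ± 0.25 (edgeR adjusted p = 0.0413). RBOHD did not pass in any comparison, and was at 1.61 ± 0.52 in aig2abc pad4 against pad4 (adjusted p = 0.106). In pad4 against Col-0 and in aig2abc pad4 against pad4, 0 of these 9 genes were called, and by unadjusted p below 0.05 these numbers were 0 and 3.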

How the data were processed

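Transcripts of whole shoots were counted by 3′ RNA-seq in 12 libraries of 4 genotypes. The authors deposited raw counts for each gene, as the whole numbers of the columns show. Per the submitters' processing notes, STAR, edgeR and the build TAIR10 were used, with no versions or order, while settings for counting and strand are not stated there. The number of the third pad4 column matches no title, and the column entered by its group alone as pad4 replicate 3.

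Tests used edgeR 4.0.16 under R 4.3.3. After filterByExpr 15082 genes remained. A model with 4 group means over all 12 libraries, scaled by TMM, was tested two-sided by robust quasi-likelihood, and p-values were adjusted per comparison by Benjamini-Hochberg. The fit was tested on simulated data with known changes. Intervals and floors cover counting error only. Between replicates the chi-square per gene was 3.39 to 57.7, above counting noise. Named genes were every member, with values per library for those called, and the called genes of 2 related lists. CRK5, CRK10 and CRK18 were given per library after their values were seen. The members and lists were chosen with earlier results of these data known. Alternatives were RLE factors, DESeq2 1.42.0, limma-voom (limma 3.58.1), 2 other filters, fits of the compared groups only, a replicate block, the replicate axis as a covariate (a library's score on the leading component of log2 CPM residuals in the genotypes other than aig2abc), thinning to 584342 counts, and leaving out each library. Gene names, positions and upstream sequences came from RefSeq's TAIR10.1, matched by locus code for all 42 members. Proteins were not used here.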

Additional observations from a re-analysis of the deposited data

Results flagged for a closer look

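The change in aig2abc differed with the PAD4 genotype for CRK7 and CRK29 by the interaction test. For CRK7 the interaction was 4.00 on the log2 scale, and 3.43 to 6.29 over 19 alternatives that gave a value. For CRK29 it was -2.97, and -3.42 to -1.48 over 19 alternatives. With the replicate axis as a covariate neither passed, at adjusted p = 0.0591 for CRK7 and 0.34 for CRK29. The CRK7 value rests on 2 counts in pad4, and the CRK29 value on the shallow aig2abc libraries. Why these members differ was not tested.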

How the results depend on the processing

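Over 31 calls of members and their alternatives, 549 of 620 values kept the direction and the call, 71 kept the direction but lost the call, and 0 were reversed. Thinning to the smallest library left 3 members tested, so its counts, 2 higher in aig2abc against Col-0 and 1 higher in aig2abc pad4 against pad4, 1 lower in pad4 against Col-0 and 1 lower in aig2abc pad4 against aig2abc, with 0 in each other set, reflect fewer genes tested. With the replicate axis as a covariate, 4 were higher and 0 lower in aig2abc against Col-0, 11 were higher in aig2abc pad4 against pad4, 1 was lower and 0 higher in aig2abc pad4 against aig2abc, and 0 passed the interaction. The cause was not tested. Fits of only the groups compared gave 3 higher in aig2abc pad4 against pad4 and 3 lower in pad4 against Col-0, with fewer samples behind the spread and with CRK37 not among the genes tested. Without a filter on low counts 8 members were higher in aig2abc against Col-0 in place of 11, beside 10.2% of all tested genes in place of 18%. The members lost were EP1 (edgeR adjusted p = 0.0795), CRK14 (0.0687) and CRK28. In that fit 2 members passed the interaction upward, the added one being CRK15, with 0 counts in aig2abc.

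When each library was left out in turn, 6 to 12 members were higher and 0 to 2 lower in aig2abc against Col-0. Between 2 and 7 were higher in aig2abc pad4 against pad4, and 4 to 5 lower in pad4 against Col-0. In aig2abc pad4 against aig2abc 0 to 3 were higher and 5 to 8 lower, and 1 to 3 passed the interaction upward and 0 to 1 downward. Deviations of same-numbered libraries correlated at -0.273 to 0.55, above 0.1 in 5 of 15 pairs. All 5 lay among the genotypes other than aig2abc, where replicate 1 of Col-0, pad4 and aig2abc pad4 correlated at 0.515 to 0.55. Replicate 3 of Col-0 and aig2abc pad4 was at 0.426, but replicate 2 of aig2abc pad4 was at -0.273 with Col-0 and -0.115 with pad4. Pairs with aig2abc were at -0.146 to 0.0493. As 5 of 11 libraries were closest to one with their own number, the numbers were not taken to pair all samples. What the replicates 1 share was not tested. A replicate block moved the upward interaction calls to 2, adding CRK6 (2.88, adjusted p = 0.0319), and CRK37 in aig2abc pad4 against pad4 did not pass under it (3.36, adjusted p = 0.0854). The depth of aig2abc limits its low members most, where 3 counts over the group stand for 0.479 CPM.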
